A study of Rattus norvegicus with 9 samples.

Results

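The 9 genes described here encode proteins by which platelets and their parent cells, the megakaryocytes, are recognised: the granule chemokines Pf4 and Ppbp, the integrin subunit Itga2b, the receptor subunits Gp1ba, Gp1bb, Gp9 and Gp5, the collagen receptor Gp6 and the adhesive ligand Vwf. They were taken by gene symbol from a table of 32623 gene rows from rat femur. Each symbol matched 1 row, and all 9 rows were among the 13886 with a mean of at least 1 FPKM (fragments per unit of gene length and of sequencing depth, so that genes can be compared) that were tested. Femora of wild-type Sprague-Dawley rats were sequenced as poly(A) RNA in 9 libraries: 3 of normal control rats, 3 of ovariectomized rats, a model of bone loss after the menopause, and 3 given the herb Desertliving Cistanche, which the series title places in ovariectomized rats. The labels give no age, sham operation, dose, route or duration, and nothing in them says that the 3 libraries of a group came from separate animals, so that p-values measure the spread between these libraries, which may be technical. Libraries held 54992823 to 66531156 counts.

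Megakaryocytes mature in bone marrow beside the sinusoids, package chemokines and adhesive proteins into granules and release platelets into the blood. On a platelet, the receptor made of Gp1ba, Gp1bb, Gp9 and Gp5 catches von Willebrand factor, the product of Vwf, on exposed collagen. Gp6 then binds the collagen itself and signals, and the integrin of Itga2b and Itgb3 switches to a form that binds fibrinogen. Vwf differs from the other genes in that endothelial cells make it as well. In RNA from whole femur, fewer megakaryocytes and less RNA per megakaryocyte cannot be told apart.

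Megakaryocyte RNA was present in every library. Itgb3, the partner of Itga2b, stood at 76.0 to 113 FPKM. The platelet tubulin Tubb1 stood at 43.3 to 68.9 FPKM, and the receptors Treml1 and Clec1b at 31.7 to 67.8 and 36.9 to 61.7 FPKM. Bone and blood markers of a femur were present too: the osteoblast protein osteocalcin (Bglap) had a mean of 450.1 FPKM and beta-globin (Hbb) a mean of 40307 FPKM, and Ahsp, the chaperone of alpha-globin, stood at 978 to 1773 FPKM. Several libraries stood apart on marker lists of other cells. Control 2 held 82054 CPM (counts scaled to a common library total with TMM factors) summed over 17 erythroid genes, against 23987 to 36391 CPM in the other 8 libraries. Control 3 held 479 CPM of 10 adipocyte genes and 1425 CPM of 10 cartilage genes, against 1077 to 2315 and 196 to 776 CPM elsewhere. Ovariectomized 3 held 5549 CPM of 9 skeletal muscle genes, against 401 to 2968 CPM elsewhere.

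Levels per length ran from the granule chemokines down to the receptor subunits. Pf4, platelet factor 4, had the highest level, 669.9 ± 88.1 FPKM (SD over all 9 libraries), followed by Ppbp, which lies 2695 bases from it on chromosome 14 and encodes the precursor of platelet basic protein and neutrophil-activating peptide, at 247 ± 62.8 FPKM. Itga2b came next at 86.4 ± 14.0 FPKM. Each of these 3 lay above the next gene in 9 of 9 libraries. Gp1ba (25.6 ± 5.04 FPKM) and Gp9 (25.2 ± 4.64 FPKM) could not be ordered, since Gp1ba was the higher in 5 of 9 libraries. Vwf followed at 19.3 ± 3.40 FPKM, below Gp9 in 9 of 9 libraries and above Gp6 in 8. Gp6 (17.0 ± 3.30 FPKM) lay above Gp5 (12.8 ± 1.81 FPKM) in 9 of 9 libraries. Gp1bb was lowest, with a median of 2.56 FPKM, and lay under Gp5 in 8 of 9 libraries. The exception was control 3, where Gp1bb reached 39.1 FPKM, above all members except Pf4, Ppbp and Itga2b.

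**Figure D1:**
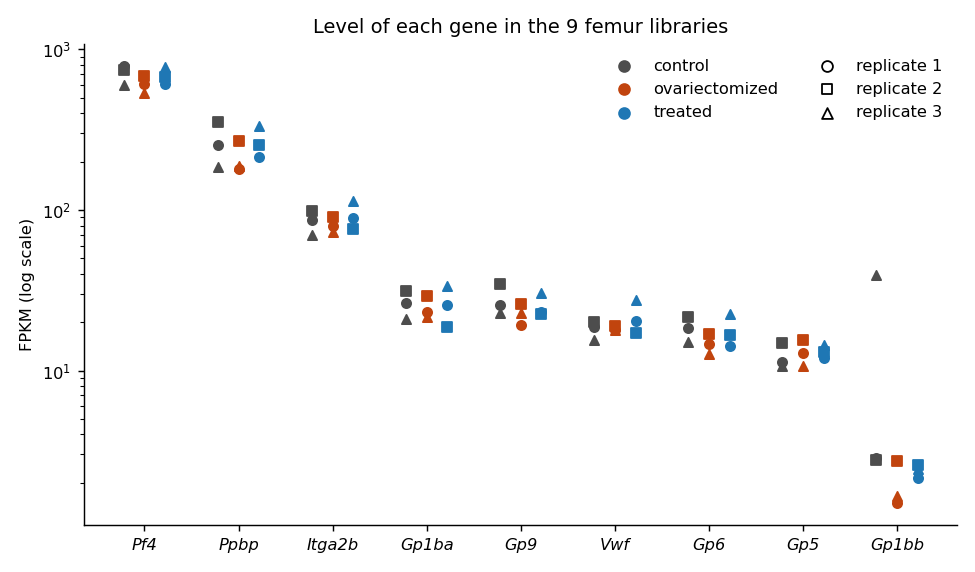
Level of each gene in FPKM (vertical axis, log scale) in the 9 libraries; colour gives the group and symbol shape the replicate number. The genes span from Pf4 at 538 to 790.3 FPKM down to Gp1bb, whose single high point is control 3 at 39.1 FPKM.

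Megakaryocyte genes are known for promoters that combine sites for GATA factors (such as Gata1) and for ETS factors (such as Fli1). The 250 bases before the start of each gene were therefore searched on both strands for short motifs. The GATA-type motif was written as AGATAA, with TGATAA the other form searched. The ETS-type motif was written as GGAAGT, with AGGAAG the other form searched, and these forms can share 5 bases. Further spellings of either site were not searched. RefSeq promoters on GRCr8 were found for 7 of the genes: Ppbp, Itga2b, Gp1ba, Gp1bb, Gp9, Gp5 and Gp6. The GATA-type letters were in 4 of 7, against 16.9% of all 33469 promoters of that length, and the ETS-type letters in 6 of 7, against 38.7%. Both kinds were in Itga2b, Gp1ba, Gp5 and Gp6, against 6.16% of all promoters; a match is a description of letters, not a bound site. These 4 are shown because they hold both kinds, and Gp1bb because it is the only one of the 7 without a match to any form searched. Close spellings that were not searched are present in the Gp1bb letters: AGATAG on both strands, and CGGAAG. Its lack of a match thus holds only for the forms searched, and does not show that Gp1bb lacks GATA or ETS sites. The share of all promoters with these further spellings was not counted. Each reads 5′ to 3′ on the gene's strand and ends at the last base before the start, with matches to either strand in capitals.
Itga2b, chr10:87925834-87926083, minus strand: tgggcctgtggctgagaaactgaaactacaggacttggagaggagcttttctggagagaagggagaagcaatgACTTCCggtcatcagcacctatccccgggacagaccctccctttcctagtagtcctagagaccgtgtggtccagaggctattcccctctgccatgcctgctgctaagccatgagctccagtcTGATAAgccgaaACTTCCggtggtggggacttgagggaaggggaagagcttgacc
Gp1ba, chr10:55851309-55851558, plus strand: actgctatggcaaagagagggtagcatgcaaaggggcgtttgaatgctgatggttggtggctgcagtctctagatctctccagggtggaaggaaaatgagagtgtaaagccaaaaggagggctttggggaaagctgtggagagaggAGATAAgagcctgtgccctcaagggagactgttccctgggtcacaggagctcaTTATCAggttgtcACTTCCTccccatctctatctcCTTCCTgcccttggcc
Gp5, chr11:83948257-83948506, plus strand: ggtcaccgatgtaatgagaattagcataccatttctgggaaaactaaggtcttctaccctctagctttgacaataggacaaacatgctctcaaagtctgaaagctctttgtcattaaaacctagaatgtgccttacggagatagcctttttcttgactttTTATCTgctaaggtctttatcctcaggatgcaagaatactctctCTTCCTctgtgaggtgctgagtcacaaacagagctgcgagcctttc
Gp6, chr1:78508258-78508507, plus strand: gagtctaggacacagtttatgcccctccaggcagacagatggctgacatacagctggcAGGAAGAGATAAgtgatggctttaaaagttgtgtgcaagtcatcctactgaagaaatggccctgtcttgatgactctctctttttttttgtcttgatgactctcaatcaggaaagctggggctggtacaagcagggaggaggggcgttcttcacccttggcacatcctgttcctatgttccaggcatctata
Gp1bb, chr11:95882311-95882560, plus strand: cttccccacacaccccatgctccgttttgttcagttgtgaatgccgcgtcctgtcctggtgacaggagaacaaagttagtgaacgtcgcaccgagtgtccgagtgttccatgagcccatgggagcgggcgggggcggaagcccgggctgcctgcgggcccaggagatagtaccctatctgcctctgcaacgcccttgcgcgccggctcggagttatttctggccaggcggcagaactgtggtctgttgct
In Itga2b the TGATAA match began 55 bases before the start, with ETS-type matches at 177 and 43 bases. In Gp1ba the GATA-type matches lay 104 and 51 bases before the start and the ETS-type matches between 38 and 16. In Gp5 the matches lay 90 and 46 bases before the start. In Gp6 an ETS-type and a GATA-type match stood next to each other, at 192 and 186 bases.

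No member passed the test between groups. In ovariectomized against control libraries, 0 of 9 members had an adjusted p under 0.05 (edgeR's quasi-likelihood test, Benjamini-Hochberg), as did 0% of all 13886 tested genes. At an unadjusted p under 0.05 the members counted 1 of 9 (Gp1bb), against 5.05% of tested genes, and 1 of 9 (Gp1bb) had groups that did not overlap, against 8.94%. Without control 3 that count of unadjusted p was 4 of 9 (Pf4, Ppbp, Gp9 and Gp6), against 4.44% of tested genes, with 0 members past the adjusted threshold. These 4 varied together over the 9 libraries (Pearson r of 0.75 to 0.93 between pairs), so they are not 4 independent results. Without ovariectomized 1 the count was 0. In treated against ovariectomized libraries, 0 members had an adjusted p under 0.05 (0% of tested genes), 0 an unadjusted one (5.20%), and 0 had groups without overlap (12.4%). In treated against control libraries the counts were 0 (0% of tested genes), 1 (8.81%) and 1 (13.1%), the 1 again being Gp1bb; the unadjusted count was 0 without control 3 and 0 without any 1 of the treated libraries. DESeq2 called 59, 35 and 153 genes in the 3 comparisons, none of them among the 8 members other than Gp1bb; it gave Gp1bb no p in any comparison, so Gp1bb was not tested there.

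The fold changes of the members leaned one way without passing. From control to ovariectomized libraries 8 of 9 had a log2 fold change under 0, with a median of -0.27 (-0.21 without Gp1bb), against 51.3% of all tested genes and their median of -0.0037. From ovariectomized to treated libraries 8 of 9 were above 0, with a median of 0.16, against 49.0% of tested genes; these 2 comparisons share the ovariectomized libraries. From control to treated libraries 6 of 9 were under 0, with a median of -0.11. These counts rest on single libraries. Without control 2, 5 of 9 were under 0 in ovariectomized against control and 3 of 9 in treated against control libraries. From ovariectomized to treated libraries 1 of 9 was under 0, and 4 of 9 were without treated 3, 2 without ovariectomized 1 or 3, and 0 without ovariectomized 2 or treated 1. From control to treated libraries, 9 of 9 were under 0 without treated 3.

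**Figure D2:**
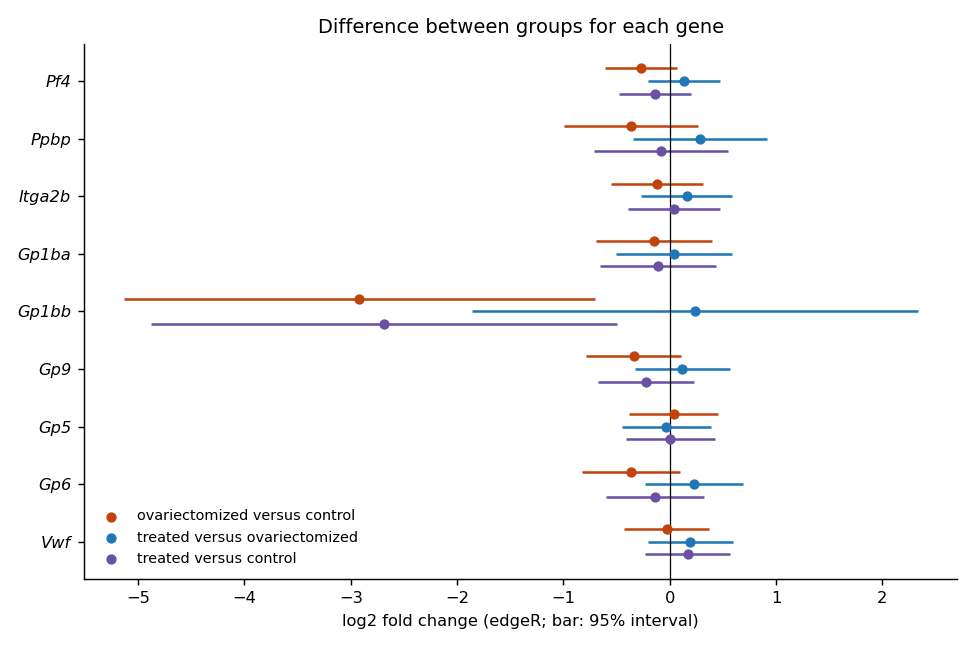
Log2 fold change (horizontal axis) of each gene in the 3 comparisons, from edgeR, with bars for the 95% interval. For 8 genes every interval crosses 0; Gp1bb has intervals of -5.14 to -0.71 and -4.88 to -0.49 against control libraries and an adjusted p of 0.892 and 0.512.

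Pf4, a heparin-binding chemokine of the alpha granule that restrains megakaryocyte growth, stood at 274, 262 and 197 CPM in control 1, 2 and 3, at 203, 228 and 176 CPM in ovariectomized 1, 2 and 3, and at 199.7, 217 and 247 CPM in treated 1, 2 and 3. Control 1 and 2 lay above the other 7 libraries, but control 3 lay among the ovariectomized ones, so the groups overlapped. On the log2 scale the fold change was -0.27 ± 0.15 (SE, n = 3 against 3; edgeR adjusted p = 0.999) for ovariectomized against control and 0.13 ± 0.15 (adjusted p = 0.963) for treated against ovariectomized libraries. As a fold, the former was 0.829, with a 95% interval of 0.655 to 1.05.

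Ppbp, whose product is cut into chemokines that draw neutrophils, stood at 251, 354 and 173 CPM in the control libraries, at 172, 256 and 176 CPM in the ovariectomized ones and at 199, 234 and 301 CPM in the treated ones. It varied most of the 8 members other than Gp1bb, with a coefficient of variation of 26.8% over the 9 libraries. Control 3 lay with the lowest libraries and control 2 was the highest, so the control group alone spanned nearly the whole range. Its log2 fold change was -0.36 ± 0.28 and 0.28 ± 0.28 in the first 2 comparisons. Without control 2 the former was -0.085 and without control 3 it was -0.59, while without treated 3 the latter was 0.10. The fold of ovariectomized over control had an interval of 0.502 to 1.20. Within a library the CPM ratio of Ppbp to Pf4 ran from 0.848 in ovariectomized 1 to 1.35 in control 2.

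Itga2b, the alpha subunit of the platelet fibrinogen receptor, stood at 310.2, 363 and 237 CPM in the control libraries, at 277, 313 and 246 CPM in the ovariectomized ones and at 304, 255 and 376 CPM in the treated ones. Treated 3 was the highest and control 3 the lowest. Its log2 fold change was -0.12 ± 0.19, 0.16 ± 0.19 and 0.04 ± 0.19 in the 3 comparisons. The interval of the fold was 0.683 to 1.24 for ovariectomized over control, and that of the log2 fold change of treated against ovariectomized libraries was -0.27 to 0.59.

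Gp1ba, the subunit that holds the site for von Willebrand factor, stood at 76.7, 93.4 and 57.6 CPM in the control libraries, at 64.8, 81.4 and 59.3 CPM in the ovariectomized ones and at 70.4, 50.8 and 89.8 CPM in the treated ones. Control 2 was the highest and treated 2 the lowest, and each group spanned much of the range. Its log2 fold change was -0.15 ± 0.24 and 0.04 ± 0.24 in the first 2 comparisons, and -0.11 ± 0.24 in treated against control libraries.

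Gp9, a small subunit without which the receptor does not reach the cell surface, stood at 46.6, 63.6 and 39.4 CPM in the control libraries, at 33.4, 45.7 and 39.1 CPM in the ovariectomized ones and at 40.0, 37.8 and 50.5 CPM in the treated ones. Control 2 stood alone at the top. The log2 fold change was -0.34 ± 0.20 (unadjusted p = 0.120 with edgeR, not past the adjusted threshold) for ovariectomized against control and 0.12 ± 0.20 for treated against ovariectomized libraries. The CPM ratio of Gp1ba to Gp9 stayed between 1.34 and 1.94 in the 9 libraries.

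Gp5, the subunit that thrombin cuts from the platelet surface, stood at 21.0, 27.9 and 18.8 CPM in the control libraries, at 22.9, 27.8 and 18.7 CPM in the ovariectomized ones and at 21.1, 22.4 and 24.5 CPM in the treated ones. The control and ovariectomized libraries covered nearly the same range, and the treated ones lay inside it. Its log2 fold changes were the smallest of the receptor subunits in these comparisons: 0.04 ± 0.18, -0.03 ± 0.18 and 0.01 ± 0.18.

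Gp6, which pairs with the signalling chain Fcer1g to report collagen, stood at 51.2, 60.9 and 39.7 CPM in the control libraries, at 39.3, 45.0 and 33.6 CPM in the ovariectomized ones and at 37.7, 43.0 and 57.3 CPM in the treated ones. Control 2 and treated 3 were the highest, and control 3 lay below ovariectomized 2. The log2 fold change was -0.37 ± 0.20 (edgeR adjusted p = 0.999) for ovariectomized against control and 0.23 ± 0.20 (adjusted p = 0.953) for treated against ovariectomized libraries. The fold of the former had an interval of 0.564 to 1.07.

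Vwf stood at 178, 197 and 140.3 CPM in the control libraries, at 166, 176 and 163 CPM in the ovariectomized ones and at 185, 152 and 242 CPM in the treated ones. Treated 3 was the highest and control 3 the lowest, as for Itga2b. The log2 fold change was -0.03 ± 0.18, 0.19 ± 0.18 and 0.17 ± 0.18 in the 3 comparisons. The CPM ratio of Vwf to Itga2b varied less than any other of the 5 member ratios computed, from 0.542 to 0.662. Endothelial RNA was also present: Tie1 and Eng, the endothelial markers with the highest FPKM, stood at 14.0 to 16.7 and 15.7 to 21.8 FPKM. The summed CPM of 20 endothelial genes was 514 to 580 in control, 503 to 603 in ovariectomized and 470.5 to 614 in treated libraries, with treated 3 the highest, as for Vwf. The share of Vwf RNA from each cell type was not tested.

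**Figure D3:**
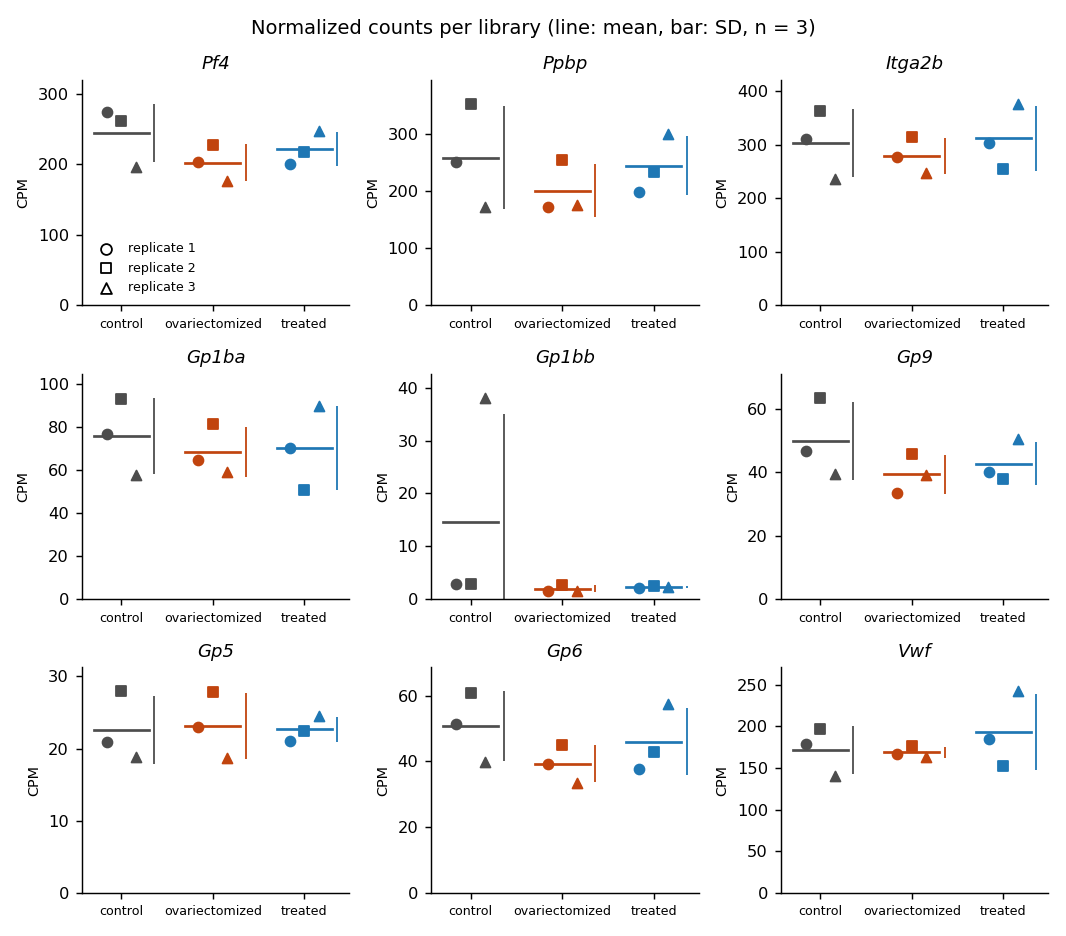
CPM of each gene (vertical axes, from 0) in the control, ovariectomized and treated libraries; symbols are libraries, lines are group means and bars are 1 SD (n = 3). The groups overlap in 8 genes, and Gp1bb has 1 high library, control 3 at 38.1 CPM.

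Gp1bb, the subunit that links Gp1ba to the rest of the receptor through disulphide bonds, departed from the other members in 1 library. It stood at 2.93, 2.90 and 38.1 CPM in the control libraries, at 1.49, 2.70 and 1.61 CPM in the ovariectomized ones and at 2.09, 2.45 and 2.29 CPM in the treated ones. Control 3 was 13.03-fold above the next library, and the other 8 lay between 1.49 and 2.93 CPM. Only 6 of 13886 tested genes had a highest library at least 10-fold above the next, and in 2 of these 6 it was control 3. The log2 fold change was -2.92 ± 0.97 (unadjusted p = 0.0158; edgeR adjusted p = 0.892) for ovariectomized against control libraries and -2.69 ± 0.96 (unadjusted p = 0.0220; adjusted p = 0.512) for treated against control libraries. Without control 3 these became -0.59 ± 0.29 (unadjusted p = 0.0795 with edgeR, not past the adjusted threshold) and -0.36 ± 0.29 (adjusted p = 0.941). Control 1 and 2, at 2.93 and 2.90 CPM, still lay above the 6 ovariectomized and treated libraries, the highest of which had 2.70 CPM.

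Gp1bb lies inside the span of another gene. On the build of the deposited coordinates (its name not given in the sources used here), Gp1bb spans 86520992 to 86522169 of chromosome 11, and Septin5, which encodes a filament-forming GTPase of nerve endings and platelets, spans 86512797 to 86522168 on the same strand, so 1177 of the 1178 bases of Gp1bb are shared. No other member overlapped a row of the table. Septin5, named here after its values were seen, had 8149 counts in control 3, its lowest library, and 10522 to 13165 counts in the others. Gp1bb had 2568 counts in control 3 and 95 to 176 in the others. Gp1bb thus took 24.0% of the counts of the pair in control 3 and 0.895% to 1.44% in the other 8 libraries. The sum of the pair was 159 CPM in control 3, under the 166 to 222 CPM of the other libraries. With both rows joined, the log2 fold change was -0.10 ± 0.14 for ovariectomized against control, 0.15 ± 0.14 for treated against ovariectomized and 0.05 ± 0.14 for treated against control libraries. Reads of these 2 overlapping genes may be split either way, so the level of Gp1bb is uncertain in every library. The part of that split in the control 3 value was not tested.

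**Figure D4:**
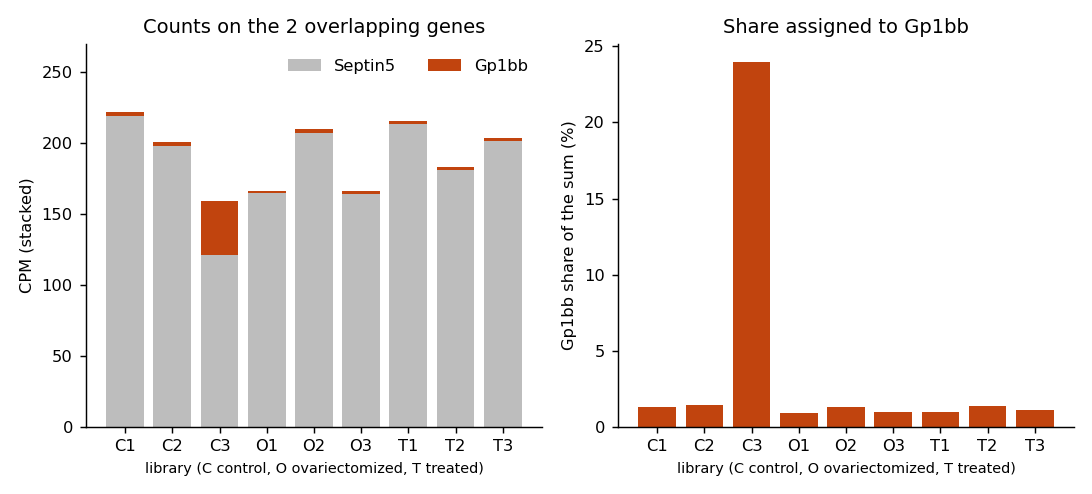
Left, CPM of Septin5 and Gp1bb stacked for each library; right, Gp1bb as a percent of the counts of the pair. In control 3 the Gp1bb share is 24.0% while the stacked sum, 159 CPM, is the lowest of the 9.

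The other members tended to vary together over the 9 libraries, but not between every pair of libraries. From treated 1 to treated 2, for example, Pf4 rose from 199.7 to 217 CPM while Itga2b fell from 304 to 255 CPM. Over the 7 members other than Gp1bb and Vwf, the mean log2 CPM relative to the mean of the 9 libraries was 0.41 in control 2, 0.28 in treated 3, 0.13 in ovariectomized 2 and 0.12 in control 1. It was -0.11 and -0.13 in treated 1 and 2, -0.18 in ovariectomized 1, -0.24 in control 3 and -0.29 in ovariectomized 3. Each group thus held libraries on both sides of 0. Of all 9 members, control 2 was among the highest 2 libraries for 8, treated 3 for 6, and control 3 was among the lowest 2 for 6.

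The 21 pairs among these 7 members had Pearson correlations of log2 CPM of 0.61 to 0.94, with a median of 0.77, over 9 libraries, and Spearman correlations of 0.47 to 0.93. Without control 2 and treated 3, the 2 libraries farthest from the median, the correlations were 0.23 to 0.98 with a median of 0.62. After the group means were subtracted they were 0.65 to 0.98. Gp5 followed the other 6 least closely (r = 0.75 with their mean) and Ppbp most closely (r = 0.94). Vwf correlated with the 7 at 0.54 to 0.93. Across the 9 libraries it correlated at 0.82 with the mean of 19 other platelet receptors. With the other platelet lists it ran from 0.16 (transcription factors) to 0.86 (cytoskeleton). For other cells it ran from -0.67 (cartilage) to 0.59 (adipocytes), with 0.48 for the endothelial genes. Gp1bb correlated with the other 8 at -0.48 to -0.02 by Pearson, but at -0.08 to 0.57 by Spearman (median 0.25, with 7 of 8 above 0), which gives its high control 3 value only a rank. These values describe 9 libraries whose genes share depth and scaling, and carry no test.

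**Figure D5:**
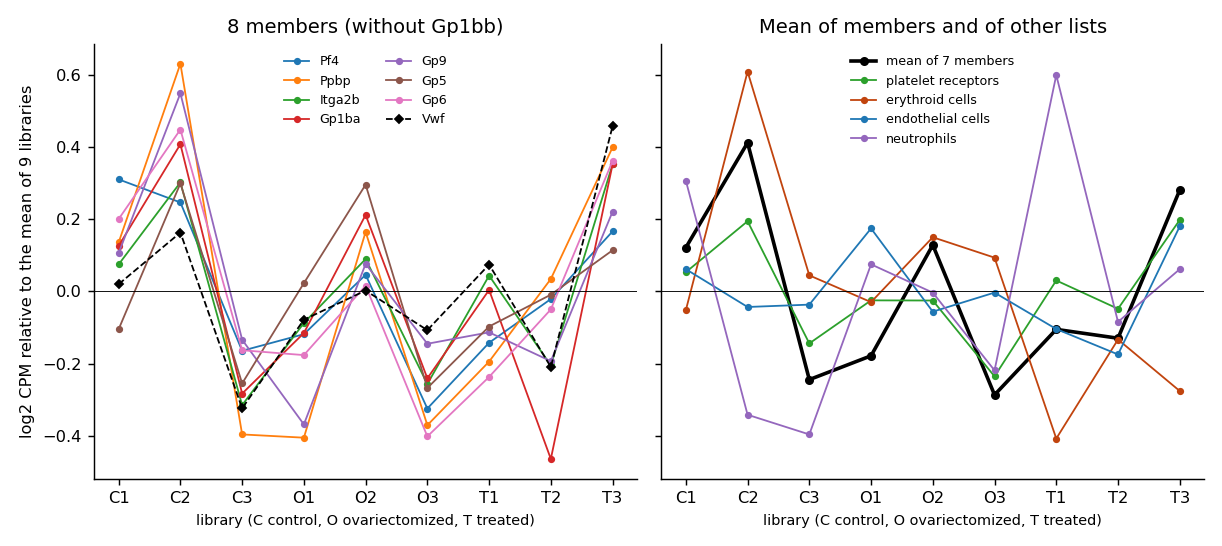
Log2 CPM relative to the mean of 9 libraries (vertical axes) for 8 genes (left) and for the mean of 7 genes and of 4 other lists (right); lines join libraries for reading only. The 7-gene mean is highest in control 2 (0.41) and treated 3 (0.28) and lowest in ovariectomized 3 (-0.29), and the erythroid mean peaks in control 2 but not in treated 3.

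Other cell types moved with some of these libraries. The mean of the erythroid genes stood at 0.61 in control 2, where the 7 members were highest, but at -0.28 in treated 3, where they were next highest. Over 9 libraries the 7-member mean correlated at 0.90 with the platelet receptors and at 0.89 with platelet signalling genes, at 0.64 with both the granule and the cytoskeletal genes and at 0.56 with the transcription factors of the lineage. For other cells it was 0.38 with the erythroid, 0.21 with the adipocyte, 0.19 with the endothelial, 0.07 with the mast cell and 0.01 with the neutrophil genes, and -0.29 with cartilage, -0.33 with bone and -0.35 with skeletal muscle genes. In ovariectomized against control libraries the erythroid list had 16 of 17 genes lower, 0 past the adjusted threshold and a median log2 fold change of -0.12. Larger medians in that comparison, where 8 of 9 members were under 0, were those of skeletal muscle (9 of 9 higher, 1.67), adipocytes (10 of 10 higher, 1.19), cartilage (7 of 8 lower, -1.87) and bone (9 of 9 lower, -0.38), each with 0 genes past the adjusted threshold. In treated against ovariectomized libraries the erythroid list had 17 of 17 genes lower, 0 past the threshold, and a median of -0.36, while 8 of 9 members were above 0. Neutrophil genes were higher in 13 of 13 there, skeletal muscle genes lower in 9 of 9 (median -1.05), cartilage genes higher in 7 of 8 (0.76), bone genes lower in 8 of 9 (-0.25), and adipocyte genes higher in 5 of 10 (0.02), with 0 past the threshold in each. The part of these cell types in the member values was not tested.

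By the rule that the likeness of a gene is its Pearson correlation with the mean of the 8 members other than Vwf, the 10 most alike genes outside the family over 9 libraries were Prim1, Ube2e2, Ift88, Eif3m, C1qtnf12, Pde5a, Panx1, Nck2, Maml2 and Taf1b, with r from 0.94 to 0.88. This list turned on Gp1bb. With Gp1bb left out of the mean, a choice made after the values were seen, the 10 were Sytl4 (0.98), Nrgn (0.96), L3mbtl1, Wdr13, Tpm4, Prkcq, Alox12, Rbpms2, Plek and Dnah1 (0.93), with no gene in common. Of these, only Tpm4, a tropomyosin, Alox12, the platelet 12-lipoxygenase, and Plek, the protein kinase C substrate pleckstrin, are on the gene lists used here. Over whole lists of genes apart from the members, the likeness to the 7-member mean had a median of 0.68 for platelet receptors (17 of 19 above 0), 0.55 for signalling (18 of 20), 0.55 for the cytoskeleton (10 of 12), 0.40 for granule genes (14 of 17) and 0.22 for transcription factors (12 of 15). Single genes of these lists differed widely, from 0.88 for Tubb1 and 0.80 for Treml1 to -0.11 for F2rl2, -0.28 for Serpine2 and -0.40 for both Tpm1 and Clu. The erythroid list had a median of 0.34, with 17 of 17 above 0.

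Other platelet receptors, from a list apart from the members, also gave no call. Of 19 tested, 0 passed the adjusted threshold in either direction in any comparison. In ovariectomized against control libraries 16 of 19 were under 0 (median -0.15), and in treated against ovariectomized libraries 16 of 19 were above 0 (median 0.15). Cd9, a tetraspanin of the platelet membrane, stood at 191, 192 and 169 CPM in control, 152, 169 and 145 CPM in ovariectomized and 168, 167 and 184 CPM in treated libraries. Its control and ovariectomized values did not overlap, but only just, with control 3 at 169.4 and ovariectomized 2 at 169.2 CPM. The log2 fold change was -0.25 ± 0.08 (edgeR unadjusted p = 0.0180, adjusted p = 0.901). F2rl2, the thrombin receptor PAR3, stood at 40.1, 28.2 and 32.6 CPM in ovariectomized and 65.1, 44.9 and 48.2 CPM in treated libraries, again without overlap, at a log2 fold change of 0.65 ± 0.22 (edgeR adjusted p = 0.929). Its control values were 44.0, 28.3 and 30.1 CPM. Of the 19 receptors, 2 had groups without overlap in each of these 2 comparisons, against 8.94% and 12.4% of tested genes. The ADP receptor P2ry1 was at -0.11 ± 0.07 and 0.14 ± 0.07, and Treml1 at -0.41 ± 0.23 and 0.14 ± 0.23, in the first 2 comparisons; neither passed. Treml1 was at -0.10 without control 2 in the former, and ranged from 0.0057 to 0.25 with 1 library left out in the latter.

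Transcription factors of the lineage were split in direction. Of 15 tested, 0 passed the adjusted threshold in either direction in any comparison, and 9 were under 0 in each of the first 2 comparisons, with medians of -0.05 and -0.09. Gata1, needed for both megakaryocytes and red cells, stood at 56.1, 60.2 and 58.5 CPM in ovariectomized and 47.2, 50.0 and 47.2 CPM in treated libraries, a log2 fold change of -0.27 ± 0.10 (unadjusted p = 0.0233; edgeR adjusted p = 0.929). Tal1 was at -0.29 ± 0.11 and Lyl1 at -0.23 ± 0.09 there, each with groups that did not overlap and an adjusted p of 0.929. Control values of Gata1 were 55.1, 72.9 and 62.5 CPM. Treated against control libraries gave larger differences for Gata1 (-0.40 ± 0.10, edgeR unadjusted p = 0.0035, adjusted p = 0.469) and Tal1 (-0.42 ± 0.11, unadjusted p = 0.0052, adjusted p = 0.473). Neither overlapped between these groups, while Lyl1 (-0.17 ± 0.09) did. These genes were named for their small p. Of the 15, 4 had groups without overlap in treated against ovariectomized libraries, against 12.4% of tested genes. An unadjusted edgeR p under 0.05 was found for 3 of 15 there, against 5.20%. In treated against control libraries 2 of 15 had groups without overlap, against 13.1%, and 3 of 15 such a p, against 8.81%. The small Maf proteins, partners of Nfe2, were at -0.11 ± 0.09 (Mafg) and 0.14 ± 0.10 (Mafk) in ovariectomized against control libraries. Gata1, Tal1 and Lyl1 are also known from red cell precursors. The erythroid marker list had 17 of 17 genes under 0 in treated against ovariectomized and in treated against control libraries. The part of red cell precursors in these values was not tested.

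Signalling, granule and cytoskeletal genes gave smaller medians. Of 20 platelet signalling genes 14 were under 0 in ovariectomized against control (median -0.04) and 15 above 0 in treated against ovariectomized libraries (median 0.07). The lowest p values in these comparisons belonged to Pde5a, the cyclic GMP phosphodiesterase (-0.29 ± 0.13, then 0.19 ± 0.13), Rap1b, the GTPase that turns on the integrin (-0.21 ± 0.10, then 0.19 ± 0.10), Tbxas1, the thromboxane synthase (-0.24 ± 0.16 in the former) and Rgs18, a brake on G proteins (0.20 ± 0.14 in the latter). Of 17 granule genes 12 were under 0 and then 14 above 0 (medians -0.04 and 0.11). They included Mmrn1, the carrier of factor V (-0.41 ± 0.19 in the former), Serpine2, a thrombin inhibitor (-0.63 ± 0.28), and F13a1, the clot-linking transglutaminase (-0.25 ± 0.13, then 0.23 ± 0.13). Serpine2 was highest in control 3, at 286 CPM against 96.6 to 200 CPM elsewhere. With 1 library left out its change in the former ranged from -0.85 to -0.33. The part of other cell types in the Serpine2 values was not tested. In the latter, Clu, clusterin, was at -0.35 ± 0.17 and Nbeal2, needed to form alpha granules, at 0.43 ± 0.21. Of 12 cytoskeletal genes 8 were under 0 and then 10 above 0 (medians -0.06 and 0.10), with Tpm1 at 0.61 ± 0.37 and then -0.61 ± 0.37, Tpm4 at -0.20 ± 0.12 and then 0.18 ± 0.12, the light chain Myl9 at -0.25 ± 0.16 in the former and Tubb1 at 0.23 ± 0.16 in the latter. In all 3 lists 0 genes passed the adjusted threshold in either direction in any comparison. Tpm1 is also abundant in skeletal muscle, whose 9 marker genes were higher in ovariectomized than in control libraries by a median log2 fold change of 1.67 and lower in treated than in ovariectomized libraries by -1.05, with 0 past the threshold; their part in the Tpm1 values was not tested.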

How the data were processed

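For each gene the authors deposited a whole-number count and an FPKM value in each of 9 libraries, in 1 table, per the file headers. The submitters' processing notes name fastp, HISAT2 and StringTie, without versions; the genome build and the counting method: not given in the sources used here. The authors' FPKM values are scaled for length and depth, and read 0.0001 where the deposited count is 0.

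Counts were treated as unscaled read counts. Library totals of 54992823 to 66531156 counts limit the precision of low genes such as Gp1bb. Testing was limited to rows averaging 1 FPKM or more and used edgeR 4.0.16 (R 4.3.3; TMM scaling, 1 quasi-likelihood fit over the 9 libraries, no covariate, threshold 0.05 after Benjamini-Hochberg adjustment over 13886 genes); the common biological coefficient of variation was 0.262. The exact permutation p of 3 libraries against 3 cannot go below 0.1. Intervals are 95% intervals of the fit. Levels between genes were compared in FPKM, and libraries in CPM. Correlations used log2(CPM + 0.5).

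The members, lists and tests were chosen with earlier results of these data known. Named were all members, from each of 5 lists of platelet genes the 3 genes with the smallest p in each of the first 2 comparisons, the 2 erythroid and 2 endothelial markers with the highest FPKM (Hbb, Ahsp, Eng and Tie1), and the 10 genes most like the members. Megakaryocyte markers, Septin5 and the likeness genes without Gp1bb were named after their values were seen. Among list symbols, Cd36, Pecam1, Myh1, Myh2, Atp2a1 and Col1a2 matched no row and were not used here. Alternatives were median-of-ratios scaling, DESeq2 1.42.0, limma 3.58.1 on log2(FPKM + 1) and log2(FPKM + 0.1), no filter or at least 5 FPKM, a robust variance model, a fit on only the 2 groups of a comparison, a replicate block, and each library left out. Promoters came from RefSeq (GRCr8), a build not mixed with the deposited coordinates.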

Additional observations from a re-analysis of the deposited data

How the results depend on the processing

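No member passed the adjusted threshold under any alternative that gave it an adjusted p; DESeq2 gave Gp1bb none. The smallest adjusted p of a member was 0.685, 0.843 and 0.229 in the 3 comparisons in the order given in the results. Of 243 member fold changes with 1 library left out, 219 kept their direction, and of 270 under other alternatives 263 did. DESeq2 called 59, 35 and 153 genes in all, and edgeR on only the 2 groups compared called 2, 1 and 1; with 1 library left out edgeR called 0 to 4, 0 to 2 and 0 to 3. Members under 0 then numbered 5 to 9, 0 to 4 and 3 to 9, and limma at either pseudocount gave 0 under 0 for treated against ovariectomized libraries.

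Directions that turned were those of small fold changes, except for Gp1bb when its row was joined with Septin5. With limma on log2(FPKM + 1) and log2(FPKM + 0.1), ovariectomized against control gave 0.029 and 0.031 for Vwf, 0.076 and 0.078 for Septin5, 0.033 and 0.034 for F2rl2, and 0.048 and 0.050 for Nbeal2. Treated against ovariectomized gave 0.024 and 0.026 for Gp5, and treated against control 0.042 and 0.043 for Ppbp. The joined Gp1bb and Septin5 row, an alternative chosen after seeing the data, gave 0.051 in treated against control libraries, where Gp1bb alone was at -2.69. Same-numbered libraries of different groups correlated at -0.124 to 0.255, and differently numbered ones at -0.258 to 0.145. The highest values, 0.255, 0.156 and 0.153, were those of same-numbered libraries. The numbers were not taken as pairs because the labels do not say that a number marks a shared animal, cage or day. The replicate block called 0 genes in each comparison, and turned ovariectomized against control to 0.023 for Septin5 and 0.0038 for Nbeal2. The cause of these turns was not tested.

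With 1 library left out, ovariectomized against control ranged from -0.17 to 0.20 for F2rl2, -0.31 to 0.018 for Gp1ba, -0.12 to 0.21 for Gp5, -0.27 to 0.019 for Itga2b, -0.015 to 0.11 for Lyl1, -0.13 to 0.20 for Nbeal2, -0.22 to 0.16 for Septin5 and -0.15 to 0.072 for Vwf. Treated against ovariectomized ranged from -0.18 to 0.23 for Gp1ba, -0.16 to 0.13 for Gp5, -0.019 to 0.25 for Gp9, -0.058 to 0.18 for Mmrn1, -0.087 to 0.15 for Myl9, -0.073 to 0.25 for Serpine2 and -0.00025 to 0.34 for Vwf. Treated against control ranged from -0.32 to 0.078 for Gp1ba, -0.11 to 0.19 for Gp5, -0.33 to 0.015 for Gp6, -0.12 to 0.19 for Itga2b, -0.30 to 0.20 for Ppbp, -0.069 to 0.32 for Septin5 and -0.028 to 0.31 for Vwf.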
